A study of Rattus norvegicus with 9 samples.

Results

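The genes described here are 7 caspases (Casp1, Casp2, Casp4, Casp6, Casp8, Casp9 and Casp12) and Pycard, which encodes the inflammasome adaptor ASC. They were taken by name as a family and are 8 of the 19293 gene symbols on the array. Their 11 probes, out of 30367, were all well above background on all 9 arrays, so that no member was lost to the filter on dim probes. Gene expression was profiled in brain RNA of male Sprague Dawley (SD) rats at day 14, with 1 array per rat and 3 rats per group. The Sham rats had the external carotid artery isolated without a filament and received solvent by the tail vein. The I/R rats had the middle cerebral artery occluded for 2 h and then reperfused, and the sources used here name no injection for them. The DHI rats underwent the same surgery and received Danhong injection, an extract made chiefly from Salvia miltiorrhiza and Carthamus tinctorius, daily by the tail vein until day 14. The rats' age is not given in the sources used here. The tissue was the infarcted hemisphere, which mixes infarct with surrounding tissue.

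Caspases are cysteine proteases that are made as inactive precursors and cut their substrates after aspartate. In an inflammasome, a sensor such as Nlrp3 recruits ASC, which assembles into filaments and brings Casp1 molecules together so that they activate each other. Casp1 then cuts the precursors of interleukin-1β and interleukin-18 and, like Casp4, cuts gasdermin D, whose fragment forms pores in the plasma membrane. Casp8 starts apoptosis below death receptors and restrains necroptosis, Casp9 starts apoptosis in the apoptosome after cytochrome c leaves the mitochondria, and Casp6 is classed with the executioners. An mRNA level says nothing of whether a caspase was cut or active.

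The probes that carried most of the findings are printed first, as 60-base sequences from the array files read 5′ to 3′ on the transcript strand, with positions in the rn4 build. Casp1, Casp4 and Casp12 are shown because they are related genes in 1 cluster, and Casp8 and Pycard because their probes lie on other chromosomes.
Casp1 (chr8:2032917-2032976, plus strand): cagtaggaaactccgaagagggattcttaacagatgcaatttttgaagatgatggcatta
Casp4 (chr8:2075044-2075103, plus strand): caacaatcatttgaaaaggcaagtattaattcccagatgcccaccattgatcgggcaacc
Casp12 (chr8:2109935-2110430, plus strand): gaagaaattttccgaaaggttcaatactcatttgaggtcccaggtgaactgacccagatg
Casp8 (chr9:57428119-57435205, plus strand): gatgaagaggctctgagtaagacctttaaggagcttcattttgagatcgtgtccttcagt
Pycard (chr1:187276921-187276980, minus strand): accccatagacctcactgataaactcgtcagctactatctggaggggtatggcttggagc

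The Casp8 and Casp12 positions span more bases than the 60 of the probe, so that these probes cross splice junctions. The Casp1, Casp4 and Casp12 probes lie within 77.5 kb of each other. RefSeq lists these genes in that order on chromosome 8 of GRCr8, with no other protein-coding gene between them. Across the 55 pairs of member probes, the longest run of shared bases was 8 of 60.

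Promoters were searched on both strands in the window of 250 bases before to 50 after the start that RefSeq gives (GRCr8). The table held a promoter for 6 of the 8 members, and Casp4 and Casp8 were not searched. Casp1 and Casp12 are printed below, as the 100 bases just before the start, because both held a pair of half-sites of the kind that interferon regulatory factors bind. The search was for TTTC, any 2 bases and TTTC again, and capitals mark the match. The start used for Casp1 is that of the table, which lies downstream of the start of the whole gene record.
Casp1 (chr8:10872730-10872829, plus strand): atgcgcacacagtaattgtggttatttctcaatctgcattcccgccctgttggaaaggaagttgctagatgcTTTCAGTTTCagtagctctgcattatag
Casp12 (chr8:10927088-10927187, plus strand): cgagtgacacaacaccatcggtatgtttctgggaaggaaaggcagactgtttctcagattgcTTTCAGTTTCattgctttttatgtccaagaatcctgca

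The match lay from -28 to -19 in Casp1 and from -38 to -29 in Casp12, and 3.92% of the 33469 promoters in the table held these letters. The longest run shared by the 2 printed stretches was 14 bases around the match (tgctttcagtttca). It was picked from these 2 promoters, so that its presence in both was fixed by the choice. In this orientation no other promoter of the table held it. Casp12 also held TTCNNNGAA, the GAS element bound by STAT factors, which 8.87% of promoters held. The PU.1 core GAGGAA was present in Casp1 and Casp6 and in 27.6% of promoters. The NF-kB letters (GGG, any 2 bases and TTTCC), the E-box CACGTG and the CRE TGACGTCA were found in none of the 6 windows, against 1.53%, 6.42% and 1.83% of promoters. A match describes letters in a window, and no binding was measured.

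Signals are log2 of the processed intensity minus log2 of its array's 75th percentile, and a difference between groups on this scale is a log2 fold change (FC). The 75th percentile lay between 1816.3 and 3464.4 intensity units, and no probe was saturated. Slide 1 held Sham and I/R and slide 2 held DHI, so that an effect of DHI and one of the slide cannot be told apart. I/R 3 lay nearest to Sham among the I/R arrays for 8 of 8 members, and DHI 1 lay farthest from Sham among the DHI arrays for 8 of 8. Choroid plexus markers, which come from tissue lining the ventricles, were uneven in summed signal, at 94.7 on I/R 3, 139 on DHI 1 and 74.8 on DHI 3 against 0.531 to 7.58 on the other 6 arrays. Ttr was by far the brightest of them there, with a log2 signal of 6.53, 7.05 and 6.20 in turn. Not every marker followed it, since Aqp1 was higher on I/R 2 (0.32) than on I/R 3 (-0.13) or DHI 3 (-2.52). The small number of arrays (3 a group) limits how precise any of these values can be.

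In I/R versus Sham, 7 of the 8 members rose at a Benjamini-Hochberg adjusted p under 0.05 and FC over 1.5 (limma), and 0 fell. Of all 23747 probes tested, 16.4% were called higher and 15.1% lower by this rule. The median log2 fold change of the members was 3.28, against -0.10 for all probes. For none of the 8 did Sham and I/R overlap, with 7 higher and Casp9 lower in I/R, which was also seen for 26.7% (higher) and 35.8% (lower) of all probes. The 3 genes of the chromosome 8 cluster, Casp8 and Pycard rose by 8.95-fold or more and Casp6 by less, while Casp2 and Casp9 differed by under 2-fold.

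**Figure D1:**
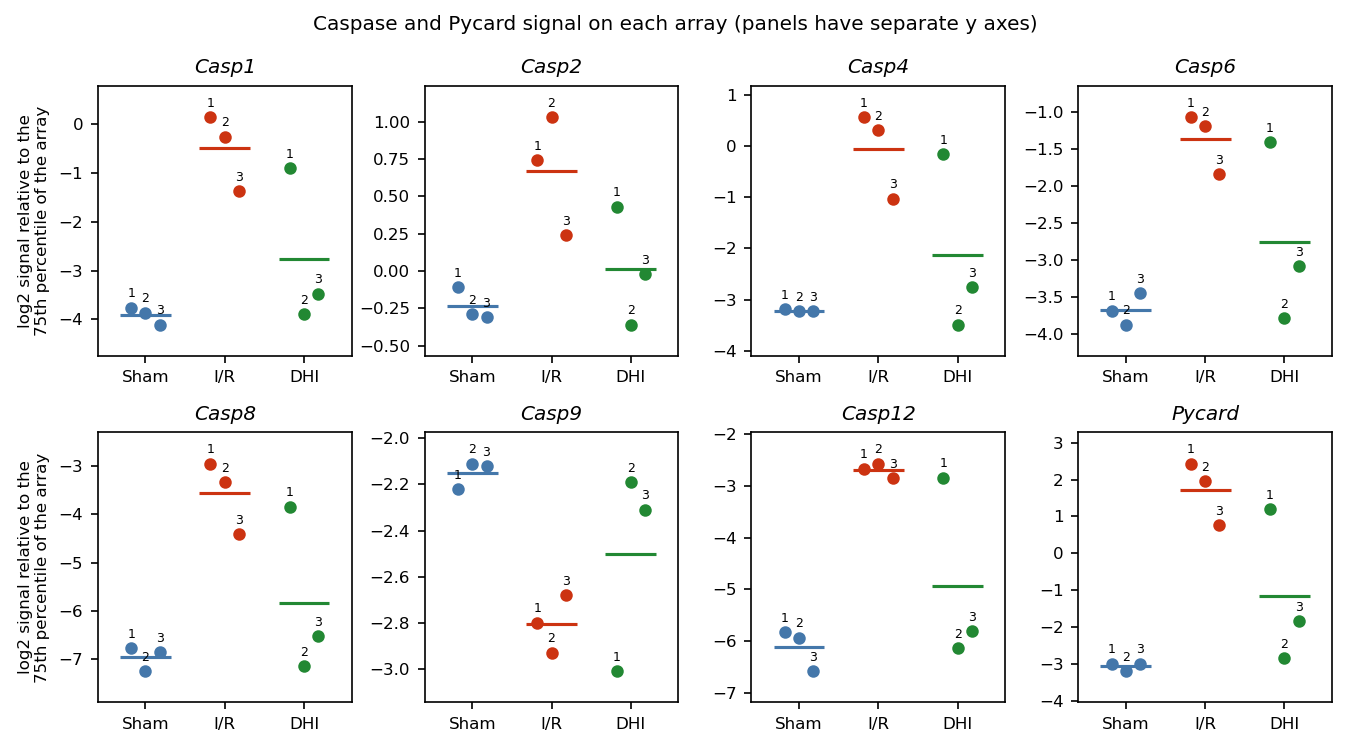
Signal of the brightest probe of each gene on each array, in log2 units above or below the array's 75th percentile (y axes differ between panels). Points are single rats, numbered by replicate, and lines are group means. The I/R points lie above the Sham points in all panels but Casp9. DHI 1 lies apart from DHI 2 and DHI 3 in all panels but Casp2, where the DHI points are spread more evenly.

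Pycard is the adaptor that joins sensors to Casp1. Its signal was -2.99, -3.20 and -2.99 on the Sham arrays, 2.43, 1.95 and 0.76 on the I/R arrays, and 1.20, -2.85 and -1.84 on the DHI arrays. The I/R arrays all lay far above Sham, and 1 DHI rat lay among them. Pycard was 27.3-fold higher in I/R than in Sham (log2 fold change 4.77, SE 0.94, 95% interval 2.61 to 6.93, adjusted p = 0.0396, limma). This was the largest difference among the members, although its interval overlapped those of Casp1, Casp4, Casp6, Casp8 and Casp12.

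Casp1 is the protease that ASC recruits. It gave -3.76, -3.86 and -4.11 in Sham, 0.15, -0.25 and -1.37 in I/R, and -0.90, -3.89 and -3.47 in DHI. Every I/R rat was above every Sham rat, by at least the gap from -3.76 to -1.37. Casp1 was over 10-fold higher in I/R (log2 fold change 3.42, SE 0.75, 95% interval 1.69 to 5.14, adjusted p = 0.0396, limma).

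Casp4, the counterpart of the gene called Casp11 in mice, encodes the protease that binds bacterial lipopolysaccharide inside the cell. Its signal was -3.19, -3.23 and -3.23 in Sham, 0.56, 0.30 and -1.03 in I/R, and -0.16, -3.49 and -2.76 in DHI. The Sham rats were nearly identical, while the I/R rats spread over more than 1 log2 unit above them. Casp4 was 8.95-fold higher in I/R (log2 fold change 3.16, SE 0.80, 95% interval 1.31 to 5.02, adjusted p = 0.0396, limma).

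Casp12 is the last gene of the cluster, and in rodents its product has been tied to the endoplasmic reticulum. It gave -5.82, -5.93 and -6.58 in Sham, -2.67, -2.57 and -2.85 in I/R, and -2.84, -6.14 and -5.81 in DHI. Its I/R rats were close together, unlike those of the other strongly raised members, and I/R 3 was hardly lower than the other two. Casp12 was over 10-fold higher in I/R as well (log2 fold change 3.42, SE 0.77, 95% interval 1.63 to 5.2, adjusted p = 0.0396, limma). The size depended on the background correction, since normexp gave a log2 fold change of 2.18 (adjusted p = 0.0317).

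Casp8 is the initiator below death receptors. Its signal was -6.77, -7.25 and -6.86 in Sham, -2.95, -3.34 and -4.41 in I/R, and -3.84, -7.14 and -6.52 in DHI. The groups Sham and I/R stood well apart, with DHI 1 inside the I/R range. Casp8 was 10.5-fold higher in I/R (log2 fold change 3.39, SE 0.80, 95% interval 1.56 to 5.23, adjusted p = 0.0396, limma). With normexp background correction this log2 fold change was 1.75 (adjusted p = 0.0317).

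Casp6 cuts nuclear lamins and, in neurons, cytoskeletal proteins. It gave -3.69, -3.88 and -3.45 in Sham, -1.07, -1.19 and -1.84 in I/R, and -1.41, -3.79 and -3.09 in DHI. All I/R rats were above all Sham rats. Casp6 was 4.96-fold higher in I/R (log2 fold change 2.31, SE 0.55, 95% interval 1.04 to 3.57, adjusted p = 0.0396, limma; probe at chr2:227373580-227373639).

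Casp2 is an initiator activated in the PIDDosome, and its 3 probes disagreed. The brightest (chr4:70046975-70047034) gave -0.11, -0.29 and -0.31 in Sham, 0.74, 1.03 and 0.24 in I/R, and 0.43, -0.36 and -0.02 in DHI. On that probe the I/R rats were above the Sham rats, and Casp2 was 1.87-fold higher (log2 fold change 0.90, SE 0.26, 95% interval 0.30 to 1.51, adjusted p = 0.0413, limma). The probe at chr4:70045051-70045110 gave a log2 fold change of -0.10 (95% interval -0.48 to 0.27, adjusted p = 0.628), and the probe at chr4:70041272-70041331 gave 0.55 (95% interval -0.19 to 1.29, adjusted p = 0.194). On both of these the groups overlapped. The mean of the 3 probes was 0.45 higher in I/R and did not pass (adjusted p = 0.0991, limma), so that the call for Casp2 rests on 1 probe, whose sequence holds a stop codon in all 3 reading frames.

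Casp9 is the initiator of the apoptosome. Its brightest probe (chr5:160719541-160719600) gave -2.22, -2.11 and -2.12 in Sham, -2.80, -2.93 and -2.68 in I/R, and -3.01, -2.19 and -2.31 in DHI. The I/R rats were all below the Sham rats, opposite to the other members. The log2 fold change was -0.65 (SE 0.22, 95% interval -1.17 to -0.14), with an unadjusted p of 0.0194 and an adjusted p of 0.0548 (limma), just over the threshold. The other probe (chr5:160706833-160706892) fell by 0.77 on the log2 scale (SE 0.21, adjusted p = 0.0401, limma), from -4.21, -4.03 and -4.05 in Sham to -4.88, -4.99 and -4.73 in I/R. The study's thresholds take FC over 1.5 with an unadjusted p under 0.05, and they are applied here to the limma p. By them, 7 members were higher and Casp9 was lower, against 20.8% and 22.3% of all probes. The study itself took the p of a t-test, with which all 8 members passed as well.

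**Figure D2:**
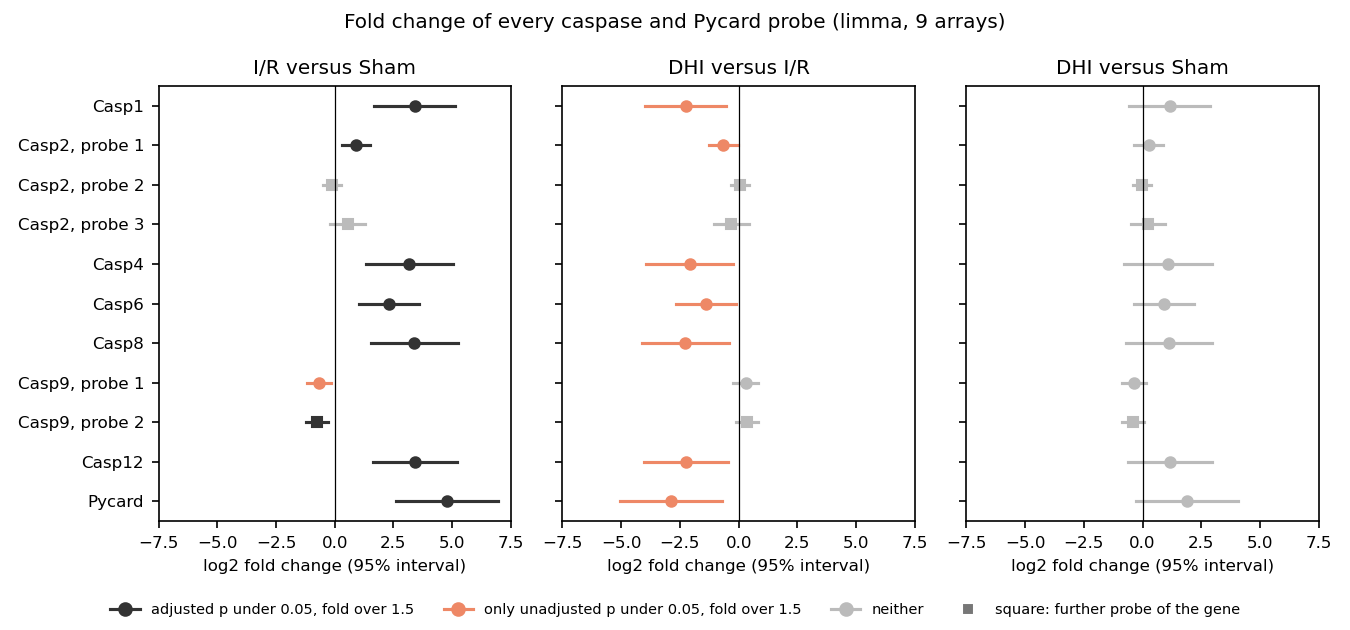
Log2 fold change (x axis, with 95% intervals from limma) of all 11 probes of the 8 genes in the 3 comparisons. Squares are further probes of Casp2 and Casp9. Most intervals lie right of 0 in I/R versus Sham and left of 0 in DHI versus I/R, where no member passed the adjusted p.

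The adjusted p-values of this comparison lay close to the threshold, since 3023 probes shared the value of 0.0396. The number of members called was 0 when any single Sham array, either I/R 1 or I/R 2, or DHI 3 was left out (adjusted p for Casp1 0.088, 0.122, 0.11, 0.133, 0.129 and 0.0577 in turn), 7 without I/R 3, and 8 without DHI 1 or DHI 2, while the log2 fold change of Casp1 stayed between 3.10 and 3.86 in these fits. With no scaling between arrays it was also 0 (adjusted p = 0.052 for Casp1), and 7 members were past the study's thresholds.

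Markers of microglia and macrophages, the phagocytes of the brain, moved with most members. In I/R versus Sham 11 of the 12 markers were called higher (median log2 fold change 3.50 for the list) and 0 lower. The exception, Cx3cr1, gave -1 (adjusted p = 0.156, limma), and its I/R arrays all lay below its Sham arrays. The summed signal of the 12 markers relative to the 75th percentile was 26.0, 25.1 and 22.6 in Sham, 369, 292 and 134 in I/R, and 200, 28.8 and 35.9 in DHI. The highest 5 arrays ran in the order I/R 1, I/R 2, DHI 1, I/R 3 and DHI 3, which was also their order for Pycard and Casp1. Neuron markers ran the other way, with 8 of 10 lower in I/R (median -2.34) and a summed signal of 100, 106 and 99.5 in Sham, 11.1, 23.4 and 52.6 in I/R, and 35.6, 110 and 88.8 in DHI. In bulk tissue, more cells of a type and more RNA per cell cannot be told apart, and the part of cell composition in the members' differences was not tested.

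**Figure D3:**
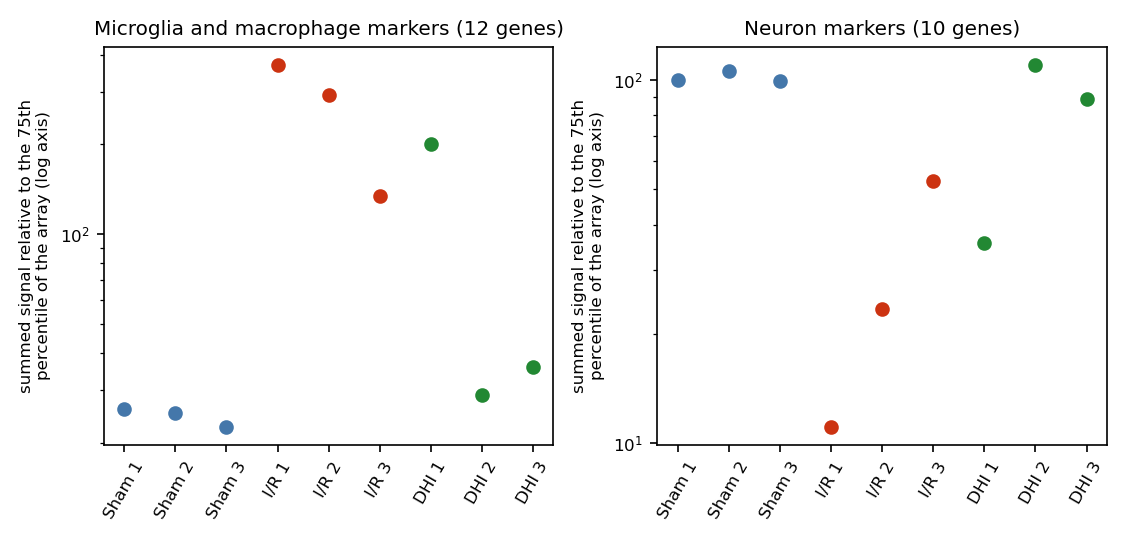
Summed signal of 12 microglia and macrophage markers (left) and 10 neuron markers (right) on each array, as multiples of the 75th percentile and on log axes. The I/R arrays and DHI 1 lie between 134 and 369 on the left, and the Sham arrays, DHI 2 and DHI 3 between 22.6 and 35.9.

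Beside this marker mean, the members fell into several kinds. Each gene and the mean log2 signal of the 12 markers, Cx3cr1 included, were set to 0 at their Sham means. The change of the gene minus that of the markers was then taken on each array. The marker mean itself ran from -0.08 to 4. Casp1 kept to it on every array, with a remainder between -0.21 and 0.08, and the remainders of Casp4 (-0.42 to 0.07) and Casp8 (-0.33 to 0.18) were also under 0.5 in size. While the marker mean reached 16-fold its Sham value, the ratio of gene to markers thus stayed within 1.16-fold of Sham for Casp1, 1.26-fold for Casp8 and 1.34-fold for Casp4. This holds for the background correction used here. With normexp, Casp8 had a log2 fold change of 1.75 in I/R versus Sham, against 3.02 for Casp1 and 2.90 for Casp4, so that its place beside them depends on that setting.

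Pycard rose more than the markers, with a remainder of 1.49, 1.43 and 1.31 in I/R, 1.14, 0.07 and 0.57 in DHI, and between -0.14 and 0.15 in Sham. Its I/R and Sham remainders did not overlap. Casp6 changed less than the markers, by -1.39, -1.09 and -0.68 in I/R, and Casp2 less still, by -3.02, -2.31 and -2.04. Casp12 followed the markers on average but not rat by rat, with a remainder of -0.56, -0.03 and 0.75 in I/R. Casp9 moved against them, and its remainder reached -4.64. These differences are a description with no test, since the genes and markers share arrays and the arrays fall into separate clusters.

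**Figure D4:**
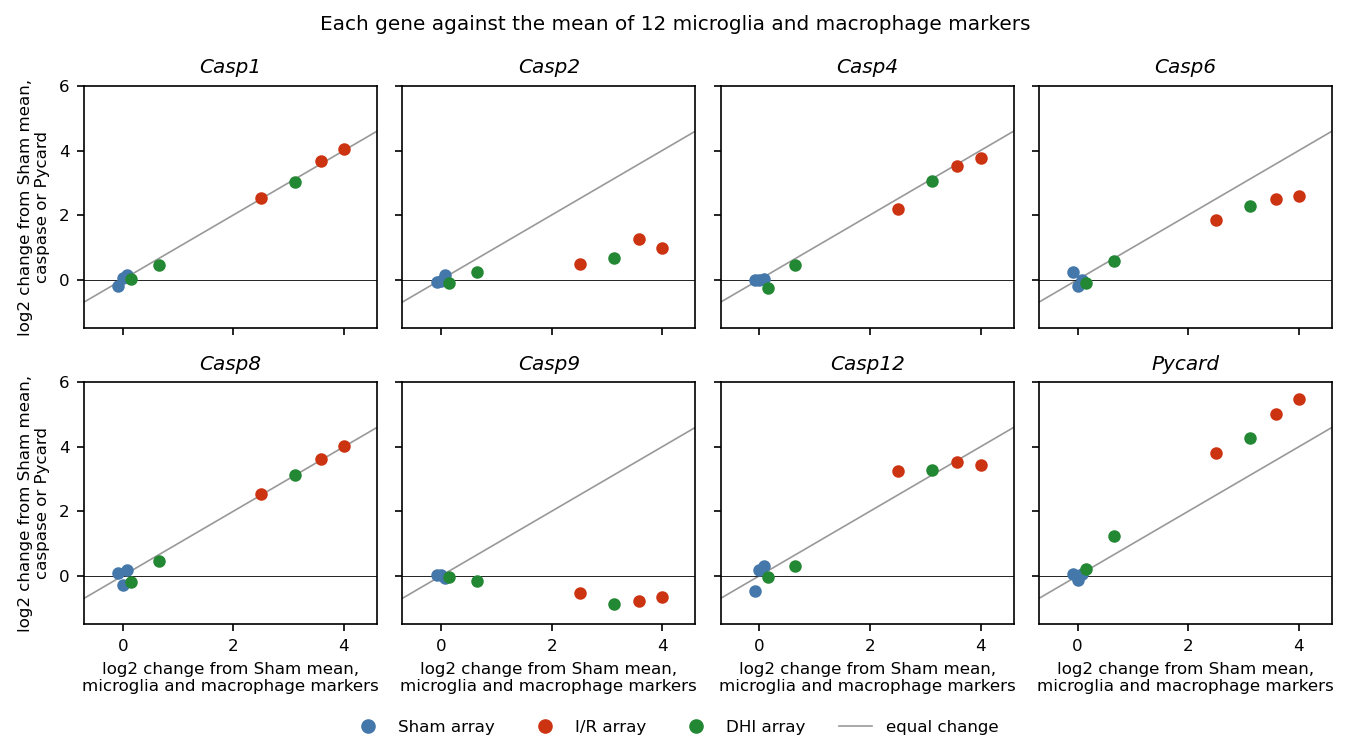
Log2 change of each gene from its Sham mean (y axis) against that of the mean of 12 microglia and macrophage markers (x axis), with 1 point per array and a grey line for equal change. Casp1, Casp4 and Casp8 lie on the line, Pycard lies above it, Casp6 and Casp2 lie below it, and Casp9 lies below 0 on the I/R arrays.

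Other leukocyte markers were dimmer. The summed signal of 7 T cell markers was 0.162 to 0.196 in Sham, 0.452 to 0.803 in I/R, and 0.603, 0.186 and 0.188 in DHI, and 4 of the 6 tested rose in I/R. Of those 4, Cd5 and Cd8a passed the filter on dim probes only through the I/R arrays. Neutrophil markers summed to 0.0629 to 0.0953 in Sham and 0.125 to 0.251 in I/R, and 3 of their 7 genes (Elane, Cxcr2 and Ngp) were too dim to test. The summed signal of astrocyte markers overlapped between Sham (178 to 187) and I/R (158 to 201), as did that of oligodendrocyte markers (145 to 170 and 112 to 165). Of the 8 astrocyte markers, however, 3 rose and 0 fell in I/R by the adjusted p, with log2 fold changes of 3.63 for Gfap, the filament protein of reactive astrocytes, 1.47 for Aqp4 and 0.79 for Gja1. At the study's thresholds 4 were higher and 2 lower, so that the list was split. The lower ones were Slc1a2 (-1.12, adjusted p = 0.0856, limma) and Aldoc (-0.70, adjusted p = 0.0622, limma), whose I/R arrays all lay below Sham. Gfap was -1.18, -0.60 and -0.69 in Sham, 2.92, 3.29 and 2.21 in I/R, and 2.51, -0.20 and 0.10 in DHI, so that DHI 1 again lay with the I/R rats. Red blood cell markers summed to 4.62, 38.6 and 19.4 in Sham, 2.82, 3.63 and 4.12 in I/R, and 9.37, 50 and 28.8 in DHI, and 4 of 4 were lower in I/R at the study's thresholds (median -2.11), with 0 called with the adjusted p. The part of these cells in the members' differences was not tested.

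The genes whose pattern over the 9 arrays was most like each member were taken from 15576 genes by Pearson's r, given with no p because the arrays fall into separate clusters. For Casp1 these were C5ar1, a receptor for complement C5a (r = 0.9994), and Aif1, which marks microglia and macrophages and is in the list above (r = 0.9993). For Casp8 they were Ifi30 (0.9991) and Mvp (0.9987), for Casp4 Tmem179b (0.9986) and St3gal6 (0.9984), and for Pycard LOC100366216 (0.9994) and Ctsz, a lysosomal cathepsin (0.9992). Casp12 was most like Timp1, an inhibitor of metalloproteinases (0.9980), and Fbn2, a fibrillin of the extracellular matrix (0.9973). Casp6 was most like Dnajc22 (0.9976) and Agpat2 (0.9966), and Casp2 most like Lrrcc1 (0.9989) and Pygl (0.9931). The pair for Casp9 was Prex2 (0.9924) and Ecsit (0.9896).

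Genes that act with the inflammatory caspases were mostly higher in I/R. Of 21 inflammasome genes tested, 15 rose and 1 fell (median log2 fold change 2.72), against 16.4% and 15.1% of all probes. Among the sensors, Nlrp3 was -7.71, -8.08 and -8.00 in Sham, where 2 of 3 arrays were well above background, and -3.48, -3.49 and -5.10 in I/R (log2 fold change 3.91, adjusted p = 0.0396, limma). Mefv, which encodes the sensor pyrin, rose by 5.17, and Gbp2, a guanylate-binding protein induced by interferon, rose by 4.69 on the log2 scale (adjusted p = 0.0396 each, limma). Naip5, a receptor for bacterial flagellin, was well above background on 0 of 3 Sham arrays, and I/R exceeded Sham by at least 22.9-fold (adjusted p = 0.0396, limma), a bound that takes, for each Sham array, its lowest signal well above background or the signal of the probe, whichever was higher. Nlrp3 and Naip5 passed the filter on dim probes only through the I/R arrays, where they were high. The filter thus favoured a rise, and their p-values are no separate support for one. No probe carried the name Aim2, a DNA sensor, so that it was not analysed here.

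The substrates of Casp1 were higher as well. Il1b gave -5.70, -5.35 and -5.69 in Sham and -2.66, -2.38 and -3.55 in I/R, a rise of 2.72 (adjusted p = 0.0419, limma). Il18 rose by 3.64 and Gsdmd, which encodes gasdermin D, by 3.02 (adjusted p = 0.0396 each, limma). Downstream of the cytokines, Il1r1, the signaling receptor for interleukin-1, rose by 2.14 from a Sham group in which 1 of 3 arrays was well above background, and Il1r2, its decoy, by 3.16 (adjusted p = 0.0396 each, limma). The exception was Il1rap, the co-receptor, which fell by 2.02 on the log2 scale (adjusted p = 0.0405, limma). Nek7, which Nlrp3 needs for its assembly, gave 0.20 (adjusted p = 0.42).

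**Figure D5:**
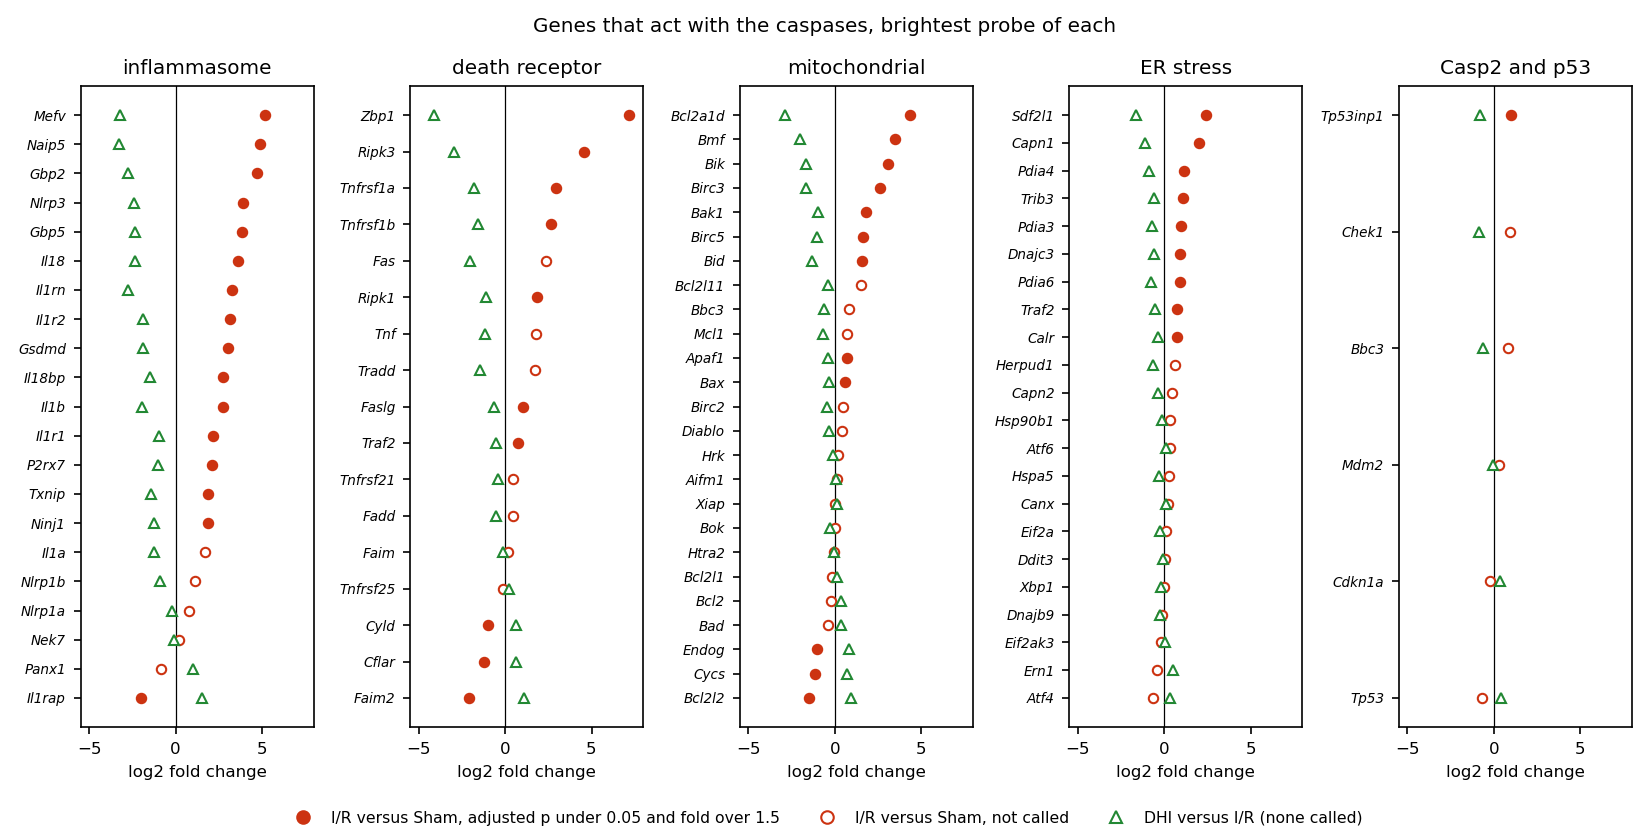
Log2 fold change (x axis) of the brightest probe of each gene tested in 5 lists of genes that act with the caspases, in I/R versus Sham (circles, filled where adjusted p was under 0.05 and FC over 1.5) and in DHI versus I/R (triangles, none called). The comparisons share the I/R arrays. The inflammasome list holds 15 called higher and 1 called lower, and the ER stress list 9 and 0.

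Around Casp8, 7 of 17 death receptor genes rose and 3 fell (median 1.02), against 16.4% and 15.1% of all probes. The number that fell was near that share. Zbp1, a sensor of Z-form nucleic acids that leads to necroptosis, was -7.54, -8.69 and -8.40 in Sham, where 1 of 3 arrays was well above background, and -0.35, -0.55 and -2.24 in I/R (log2 fold change 7.16, adjusted p = 0.0396, limma). Zbp1 and Faslg, both among the 7 that rose, passed the filter on dim probes only through the I/R arrays, which favoured a rise. Ripk3, the necroptosis kinase, rose by 4.56, Tnfrsf1a by 2.94 and Tnfrsf1b, the other TNF receptor, by 2.68 (adjusted p = 0.0396 each, limma). A further Tnfrsf1b probe of nearly the same brightness rose by 3.99 (adjusted p = 0.0396, limma). The death receptor Fas gave 2.37 and did not pass (adjusted p = 0.0536, limma), and Fadd, the adaptor that binds Casp8, gave 0.44 (adjusted p = 0.276). Cflar, which encodes the Casp8 regulator FLIP, was split between its probes. The brightest fell by 1.23 (adjusted p = 0.0407, limma), while the others gave 0.99 (adjusted p = 0.0532) and 1.21 (adjusted p = 0.0417).

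Around Casp9, 9 of 25 mitochondrial pathway genes rose and 3 fell (median 0.50), against 16.4% and 15.1% of all probes. Here too the number that fell was near the share of all probes. Apaf1, the scaffold of the apoptosome, rose by 0.72 on its brightest probe (adjusted p = 0.0405, limma), while Cycs, which encodes cytochrome c, fell by 1.16 (adjusted p = 0.0396, limma). Genes for BH3 proteins that promote apoptosis were among those higher, with Bmf up by 3.47 (adjusted p = 0.0396, limma) and Bik by 3.11 (adjusted p = 0.0465, limma). So were genes for inhibitors of apoptosis, with Bcl2a1d up by 4.35 (adjusted p = 0.0396, limma) and Birc3 by 2.61 (adjusted p = 0.0414, limma). Bcl2 itself gave -0.22 (adjusted p = 0.611).

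The ER stress list, set beside Casp12, held 9 of 22 genes that rose and 0 that fell (median 0.39), against 16.4% and 15.1% of all probes. The highest were Sdf2l1 (2.42) and Pdia4 (1.14), both luminal proteins of the endoplasmic reticulum, Capn1 (2.00), the large subunit of calpain-1, and Trib3 (1.1), a target of the stress factor CHOP (adjusted p = 0.0396 each, limma). Ddit3, which encodes CHOP, gave 0.06 (adjusted p = 0.762), Hspa5 gave 0.30 (adjusted p = 0.128) and Xbp1 gave 0.00 (adjusted p = 0.987). Of 6 genes tested beside Casp2 in the p53 list, Tp53inp1 rose by 1.02 (adjusted p = 0.046, limma) and 0 were called lower. That 1 of 6 is near the 16.4% of all probes called higher.

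In DHI versus I/R, 0 of the 8 members passed the adjusted p, as against 0% (higher) and 0.00421% (lower) of all probes, and 6035 probes had an unadjusted p under 0.05. At the study's thresholds with the limma p, 7 members were lower in DHI and 0 higher, against 10.5% and 11.5% of all probes. With the t-test that the study used, 0 members and 468 probes passed the same thresholds. The members' median log2 fold change was -2.16, against 0.10 for all probes. The arrays overlapped for all 8 members (5.51% of all probes were higher and 4.02% lower without overlap), since DHI 1 lay within the I/R range for 7 of them and below it for Casp9. For Casp1, for example, DHI 1 gave -0.90, above I/R 3 at -1.37, while DHI 2 and DHI 3 at -3.89 and -3.47 lay near the Sham rats.

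Pycard gave the largest difference of the members, at -2.87 (7.32-fold lower, SE 0.94, 95% interval -5.04 to -0.71, unadjusted p = 0.0155, adjusted p = 0.196, limma). The values were -2.26 for Casp1 (95% interval -3.99 to -0.53), -2.27 for Casp8 (-4.10 to -0.43), -2.24 for Casp12 (-4.02 to -0.46) and -2.08 for Casp4 (-3.93 to -0.22). Casp6 gave -1.40 (95% interval -2.66 to -0.13) and the brightest Casp2 probe -0.65 (-1.25 to -0.04). The adjusted p was 0.196 for all 7 (limma). With normexp background correction the values were -0.87 for Casp8 and -1.16 for Casp12. For Casp9 the value was 0.30 (95% interval -0.22 to 0.81, adjusted p = 0.355).

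The count depended on single rats. Without DHI 1, 7 members were called with adjusted p and FC together, as were 9527 probes in all, with a log2 fold change of -3.19 for Casp1 (adjusted p = 0.00293, limma) and -4.05 for Pycard (adjusted p = 0.00249, limma). Casp9 passed the adjusted p in that fit (0.0179) but not the FC, at a log2 fold change of 0.55. Without DHI 2 or DHI 3, 0 members were past the study's thresholds, without I/R 1 it was 1, and without I/R 2 it was 2, and the methods' t-test called 0 with all arrays. The markers of microglia and macrophages moved with the members here too (median -2.35, 10 of 12 lower at the study's thresholds, 0 with the adjusted p). Cx3cr1 went the other way, at 0.9 (adjusted p = 0.262, limma). Other marker lists differed as well. At the study's thresholds 8 of 10 neuron markers (median 1.74) and 4 of 4 red blood cell markers (median 2.77) were higher in DHI, with 0 by the adjusted p. The red blood cell markers did not overlap between the groups. The part of any of these was not tested.

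Among the genes around the members, none of the 5 lists held a gene that passed the adjusted p in DHI versus I/R. At the study's thresholds with the limma p, 13 of 21 inflammasome genes were lower and 1 (Il1rap) was higher in DHI, with a median of -1.46. Lower were 7 of 17 death receptor genes, 5 of 25 mitochondrial genes (with Cycs and Endog higher), 8 of 22 ER stress genes and 1 of 6 p53 genes. Of all probes, 10.5% were lower and 11.5% higher by this rule. The p53 and mitochondrial counts lay nearest to these shares. Nlrp3 gave -2.43, Il1b -1.97, Il18 -2.36 and Gsdmd -1.90, all with an unadjusted limma p under 0.05. Their t-test p-values were 0.122, 0.153, 0.101 and 0.109 in turn. These values share the I/R arrays with those of I/R versus Sham, so that a signal high in the I/R rats gives a rise in one comparison and a fall in the other.

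In DHI versus Sham, 0 of the 8 members passed either rule, against 0% of all probes with the adjusted p and 2.52% (higher) and 1.06% (lower) at the study's thresholds. Among all probes 1294 had an unadjusted p under 0.05. The members' median was 1.11, with 95% intervals as wide as -0.26 to 4.06 for Pycard (log2 fold change 1.90) and -0.57 to 2.88 for Casp1 (1.16), so that neither equality with Sham nor a severalfold rise was outside them. These values rested largely on DHI 1, and without it they were 0.72 for Pycard, 0.23 for Casp1, 0.13 for Casp8 and 0.09 for Casp4. Among the brightest probes, only for Pycard did the groups not overlap (10.3% of all probes were higher and 8.33% lower without overlap), since DHI 2 at -2.85 and DHI 3 at -1.84 were both above the highest Sham rat at -2.99. The dimmer Casp9 probe did not overlap either, with DHI (-4.95, -4.25 and -4.34) below Sham (-4.21, -4.03 and -4.05). On the brightest probes of the other members, DHI 3 lay above the Sham range for Casp1, Casp2, Casp4, Casp6, Casp8 and Casp12 and below it for Casp9. DHI 2 lay within it for Casp1, Casp6, Casp8, Casp9 and Casp12, and below it for Casp2 and Casp4.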

How the data were processed

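For each of the 9 one-color arrays, the authors deposited Agilent Feature Extraction output (version 10.7.1.1, per the labels) that gives the intensity of every spot after background correction and before any scaling between arrays. A deposited table for the whole series holds log2 values, whose normalization is not given in the sources used here. Its median was 7.56 on every array, and it followed quantile-normalized log2 intensities (Pearson's r 0.99953 across probes). No column of values was unused (0).

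Outlier and control spots were removed, the spots of each probe were averaged on the log2 scale, and the array's 75th percentile was subtracted. A probe was well above background where at least 50% of its spots were, and it was tested if this held on all 3 arrays of at least 1 group (23747 probes). Genes dim in Sham and DHI could thus enter only where they were high in I/R, which favours rises in the list counts. The brightest probe stands for a gene. Groups and replicate numbers came from the labels, and p-values measure the spread between single rats. A limma model (version 3.58.1, lmFit and eBayes) with 6 residual degrees of freedom covered the 9 arrays, with Benjamini-Hochberg adjustment over all tested probes. R was version 4.3.3 and the data.table package version 1.17.8. A call needed FC over 1.5 and an adjusted p under 0.05, or an unadjusted one by the study's thresholds. Counts at the study's thresholds use the limma p unless the t-test is named, while the study itself used a t-test. Intervals are 95%. The steps were tested on simulated data.

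The named genes are the members with all probes, the 4 largest called differences of each list in I/R versus Sham, 10 genes fixed by name (Il1b, Il18, Gsdmd, Nlrp3, Aim2, Apaf1, Bcl2, Fas, Fadd and Cflar) and the 2 genes most like each member. Il1r1, Il1r2, Il1rap, Nek7, Cycs, Endog, Ddit3, Hspa5 and Xbp1 were named after their values were seen. The members, lists and tests were chosen with earlier results of these data known. Some genes of the mitochondrial list are not reported here and were left out of its counts. Alternatives covered the scaling (quantile or none), the background correction (normexp, offset 50), the deposited series table, 2 other filters, fits of the compared groups alone, array weights, a replicate block, the methods' t-test, the mean of a gene's probes, and each array left out. Symbols are those of the files, and the accessions of all 8 members matched RefSeq, while those of Zbp1, Tnfrsf1b, Naip5, Gsdmd, Prex2 and LOC100366216 did not and Bcl2a1d is Bcl2a1 there. No exon annotation of rn4 was used.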

Additional observations from a re-analysis of the deposited data

How the results depend on the processing

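In I/R versus Sham, the number of members called with the adjusted p (7) became 0 with no scaling and ranged from 0 to 8 when 1 array was left out. The number past the study's thresholds stayed at 7 or 8 in every setting. In DHI versus I/R, the number called with the adjusted p (0) became 8 with array weights and ranged from 0 to 7 with 1 array left out, and the number past the study's thresholds (7) became 4 with only the groups compared, 0 by the methods' t-test, and ranged from 0 to 7 with 1 array left out. In DHI versus Sham, the number called with the adjusted p (0) became 2 with array weights, and the number past the study's thresholds (0) became 1 with no scaling, 2 with normexp background correction, 2 with array weights, 1 with the replicate block, and ranged from 0 to 2 with 1 array left out. With no scaling the median of all probes moved from -0.10 to 0.10 in I/R versus Sham, from 0.10 to -0.36 in DHI versus I/R and from 0.02 to -0.25 in DHI versus Sham. In that setting the value of Casp9 in DHI versus I/R was -0.16 and that of Casp2 in DHI versus Sham was -0.01, both of the opposite sign and neither called. The cause of these shifts was not tested. No other log2 fold change of a member changed sign in any setting. Array weights raised the calls over all probes in DHI versus I/R from 1 to 12213, in a fit whose weights gave a convergence warning, and no scaling lowered those in I/R versus Sham from 7471 to 1. Deviations from the group means correlated from -0.341 to 0.476 between same-numbered arrays of different groups, and from -0.531 to 0.462 between differently numbered ones. No pairing by number was seen, although 3 arrays a group cannot exclude it. The replicate block left 7 members called in I/R versus Sham, with 0 in DHI versus I/R.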
